A study of Mus musculus with 7 samples.

Results

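Dendritic cell maturation markers are described here through 10 genes: Fscn1, Marcks, Marcksl1, Il4i1, Cacnb3, Samsn1, Birc3, Traf1, Tmem123 and Slco5a1. They were taken from a list of genes known to rise when dendritic cells mature, by matching the Entrez identifiers of the count files to mouse symbols. The choice was made with earlier results of these data known. All 10 were found among 27179 listed genes and all 10 passed the filter on low counts, which kept 10863 genes. The study profiled sorted CD8 dendritic cells of C57BL/6 mice by RNA sequencing. The CD103 negative group (n = 3) and the CD103 low group (n = 2) were untreated. The CpG CD103 high group (n = 2) was treated with CpG, DNA motifs that engage Toll-like receptor 9. The only CD103 high samples were the CpG-treated ones, so the parts of treatment and CD103 level cannot be told apart. The sources used here do not give the tissue, the age of the mice, the dose or the time of treatment.

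An immature dendritic cell samples antigen. On sensing danger, or spontaneously during steady-state turnover, it matures: it rebuilds its actin skeleton, migrates along chemokine gradients to T cell areas and displays ligands that instruct T cells. NF-kB signalling drives a large part of this programme, and several of the 10 genes are NF-kB targets. No population of known maturity was among the samples, so whether the 10 genes mark maturity in these cells was not tested.

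Libraries held between 4474211 and 4629181 counts. CpG CD103 high and CD103 negative replicates 1 and 2 carried a date of 2012, and the other 3 libraries carried a date of 2013. The sources used here do not say what was done then. The date was a term in the fit, so CpG CD103 high was in effect set against CD103 negative replicates 1 and 2, and CD103 low against CD103 negative replicate 3 alone. Of 11 markers of type 1 conventional dendritic cells (cDC1), the class to which CD8 dendritic cells belong, none was at 0 in all libraries. Their summed level ran from 12319 to 17199 CPM (counts per 1000000, with library totals scaled by TMM factors).

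CpG CD103 high cells held less RNA of 7 of the 10 genes than CD103 negative cells, and of none did they hold more by the test. Slco5a1, Samsn1 and Fscn1 lay 3.40-fold to 4.60-fold lower, Il4i1, Tmem123 and Marcksl1 between 2.34-fold and 2.66-fold lower, and Cacnb3 lay 1.36-fold lower. Marcks, Birc3 and Traf1 did not pass the threshold. Over all genes tested, 26.3% were called in this comparison, 11.8% lower and 14.5% higher, at an adjusted p under 0.05 (edgeR's quasi-likelihood test with Benjamini-Hochberg adjustment). The median log2 fold change of the 10 genes was -1.30, beside -0.01 over all genes. Because the 10 genes were chosen with earlier results known, their excess over all genes is a description, not a test. Fscn1, Marcksl1, Samsn1, Tmem123 and Slco5a1 were called lower in the 15 alternative fits as well. In bulk samples such as these, fewer cells of a mature state and less RNA per cell cannot be told apart.

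**Figure D1:**
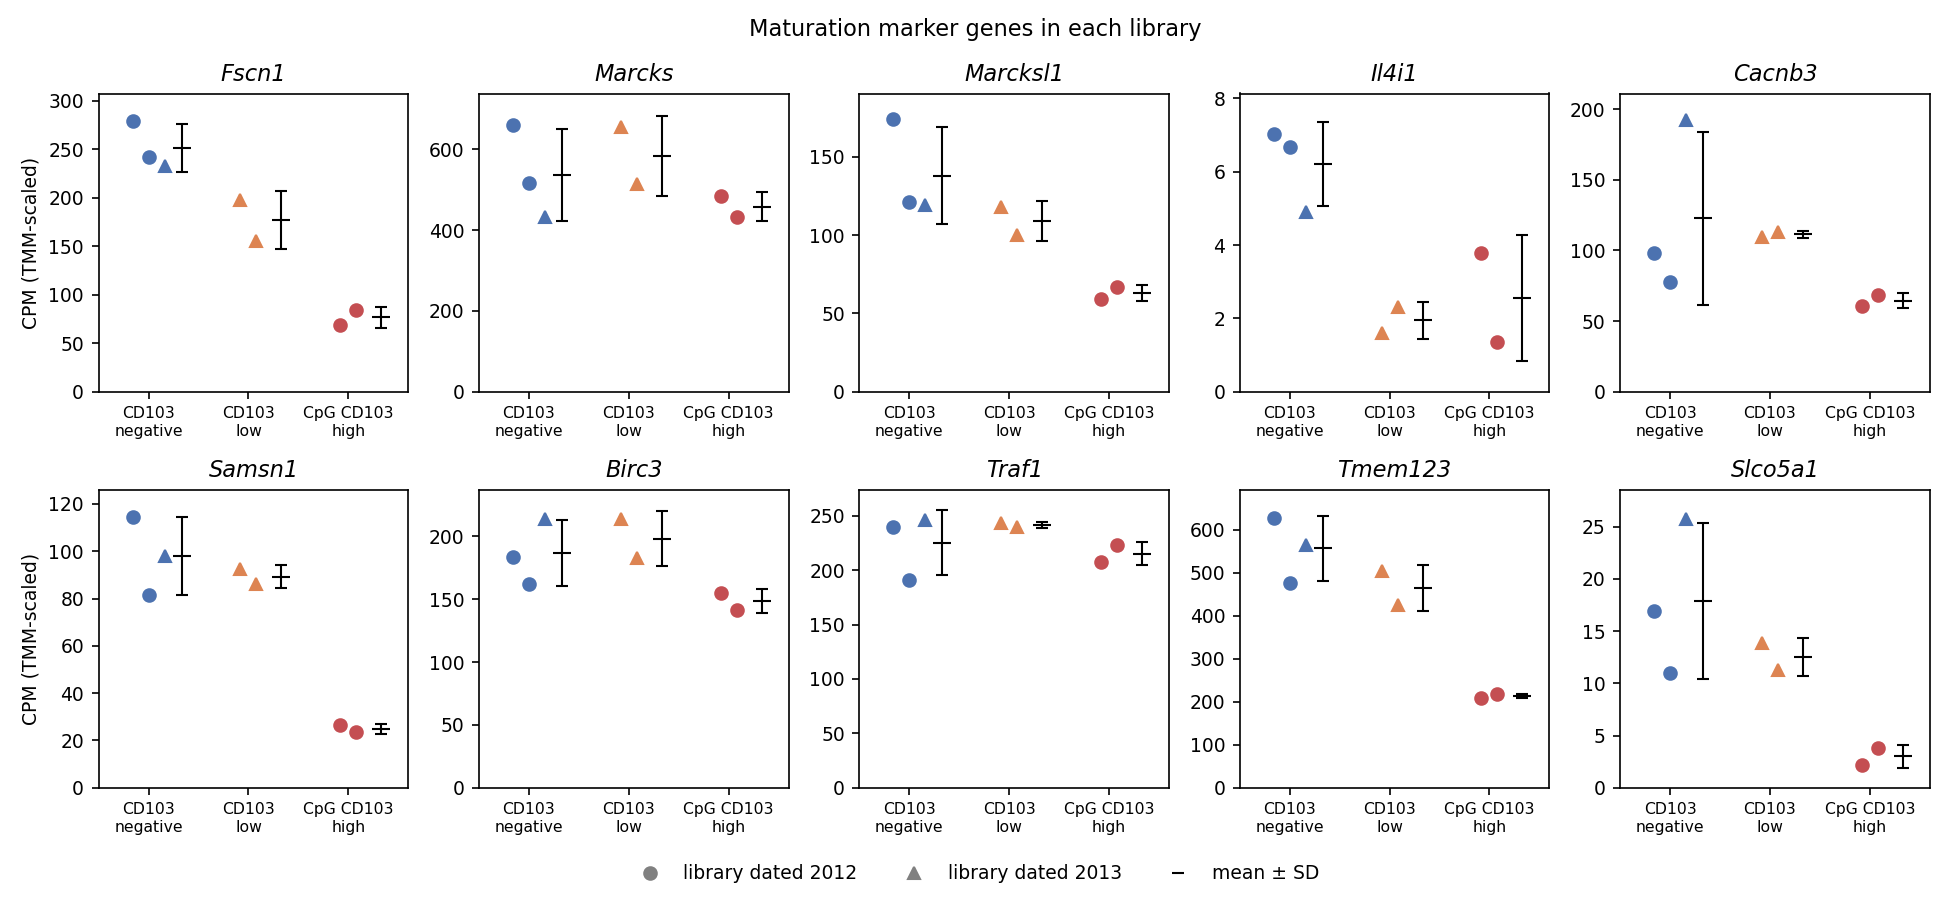
Each panel plots 1 gene, with TMM-scaled CPM from 0 on the vertical axis and the 3 groups on the horizontal axis. Circles are libraries dated 2012, triangles libraries dated 2013, and the black bar is the group mean ± SD. For 8 genes both CpG CD103 high points lie below all 3 CD103 negative points, while Marcks and Traf1 overlap.

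Fscn1 encodes fascin, which bundles actin filaments into the stiff cores of dendrites and filopodia. It lies on chromosome 5, from 142960355 to 142973189 (mm10, Entrez 14086). Its level was 279.5, 242.1 and 233.3 CPM in CD103 negative replicates 1, 2 and 3, 198.2 and 155.6 in CD103 low, and 69.2 and 84.0 in CpG CD103 high. The 3 groups did not overlap, and CD103 low lay between the others. Against CD103 negative, Fscn1 fell by 1.77 log2 units in CpG CD103 high cells (SE 0.14, adjusted p 4.61e-05), and 169 of the 10863 genes tested had a lower log2 fold change.

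The stretch just upstream of the Fscn1 start is shown because Fscn1 leads the list and its promoter carries recognisable elements. It comes from RefSeq (GRCm38.p6, the assembly of mm10) and covers the 100 bases before the start, chr5:142960255-142960354, plus strand. Capitals mark a cAMP response element (TGACGTCA), which begins 45 bases before the start, and a TATA box (TATAAA), which begins 31 bases before it.
Fscn1: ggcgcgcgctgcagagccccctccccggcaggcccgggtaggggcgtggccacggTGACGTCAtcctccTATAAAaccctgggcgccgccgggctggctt

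Marcks and Marcksl1 encode related proteins that bind membrane phospholipid and actin and leave the membrane when protein kinase C phosphorylates them. Marcks lies on chromosome 10 (37133243 to 37138926) and Marcksl1 on chromosome 4 (129513581 to 129515981). Marcksl1 stood at 173.7, 120.9 and 119.2 CPM in CD103 negative, 118.1 and 99.8 in CD103 low, and 59.2 and 66.6 in CpG CD103 high. Both CpG CD103 high libraries were below the other 5, and Marcksl1 fell by 1.23 log2 units against CD103 negative (SE 0.17, adjusted p 0.000741).

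Marcks did not separate the groups. It stood at 659.8, 516.3 and 433.5 CPM in CD103 negative, 653.9 and 513.5 in CD103 low, and 483.4 and 433.0 in CpG CD103 high. CpG CD103 high replicate 1 lay above CD103 negative replicate 3, and the log2 fold change of -0.36 (SE 0.14, adjusted p 0.0836) did not pass. With the replicate number as a block Marcks was called lower (-0.36, adjusted p 0.0146), as it was without CD103 negative replicate 2 (-0.53, adjusted p 0.0388). The ratio of Marcksl1 to Marcks within a library, which no scaling between libraries can change, was 0.263, 0.234 and 0.275 in CD103 negative. It was 0.181 and 0.194 in CD103 low and 0.122 and 0.154 in CpG CD103 high, with no overlap between the 3 groups.

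Samsn1 encodes SLY2, a cytoplasmic adaptor with SH3 and SAM domains that restrains activation in B cells. It lies on the minus strand of chromosome 16 (75858794 to 75909266). Levels were 114.4, 81.5 and 97.9 CPM in CD103 negative, 92.6 and 86.0 in CD103 low, and 26.4 and 23.5 in CpG CD103 high. The untreated libraries overlapped each other and the CpG CD103 high libraries lay far below them. Samsn1 fell by 1.97 log2 units (SE 0.17, adjusted p 6.83e-05), and 131 tested genes had a lower value.

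Part of the Samsn1 promoter is shown because it held the only match, among the 8 genes with a window at hand, to an ETS-IRF composite element (GGAA and GAAA with 2 bases of any kind between), a site type that PU.1 binds with IRF8 or IRF4 in dendritic cells. The 100 bases span chr16:75909341-75909440 (RefSeq, GRCm38.p6) and are given on the minus strand, from 174 to 75 bases before the start. Capitals mark the match, which lies beside a run of A and is a description of the letters, not of a bound site.
Samsn1: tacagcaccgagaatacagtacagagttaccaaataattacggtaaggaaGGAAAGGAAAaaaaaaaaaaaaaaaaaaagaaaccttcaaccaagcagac

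RefSeq windows of 250 bases before to 50 after a start were at hand for 8 of the 10 genes, 10 windows in all. They were searched on both strands for 9 motifs. The ETS-IRF element occurred in 2.72% of 32851 windows of all genes, the cAMP response element in 1.79% and the TATA box in 13.6%. The NF-kB motif in the form of GGG and TTTCC with 2 bases of any kind between was in none of the 10 windows and in 1.63% of all windows. The looser form, GGG and CC with 5 bases of any kind between, was in 8 of the 10 windows and in 50.8% of all. These windows belong to 6 of the 8 genes. The GC box (GGGCGG, which can overlap the looser NF-kB form) was in 6 of the 10 windows, from 4 of the 8 genes, and in 35.7% of all. AP-1 (TGANTCA), the interferon-stimulated response element (GAAA and GAAA with 2 bases of any kind between) and the interferon gamma activated site (TTCNNNGAA) were in none, against 7.81%, 3.44% and 8.30% of all windows. These counts say only which letters the windows hold.

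Traf1 and Birc3 encode partners of a signalling complex at tumour necrosis factor receptors. Traf1 is an adaptor induced by NF-kB, and Birc3 encodes cIAP2, a ubiquitin ligase that binds TRAF proteins. Traf1 (chromosome 2, 34941750 to 34961812) stood at 239.6, 191.0 and 245.8 CPM in CD103 negative, 243.2 and 239.8 in CD103 low, and 207.7 and 222.8 in CpG CD103 high. The CpG CD103 high values lay inside the CD103 negative range. The log2 fold change was -0.0003 (SE 0.11, adjusted p 0.999), with a 95% interval from -0.24 to 0.24.

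Birc3 (chromosome 9, 7847468 to 7873205) stood at 183.3, 162.1 and 214.1 CPM in CD103 negative, 213.4 and 183.0 in CD103 low, and 155.1 and 141.6 in CpG CD103 high. Both CpG CD103 high libraries were the lowest of the 7, yet the log2 fold change of -0.22 (SE 0.11, adjusted p 0.158) did not pass, with a 95% interval from -0.46 to 0.02. By the order of library values alone, 8 of the 10 genes had both CpG CD103 high libraries below all 3 CD103 negative ones, as had 22.7% of all genes tested, and none had both above, as had 22.0%.

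Tmem123 encodes porimin, a heavily glycosylated membrane protein named for a role in a form of cell death with membrane injury. It is a neighbour of Birc3 on chromosome 9 (7764077 to 7794333), with Birc2 between them and 53.1 kb from the end of Tmem123 to the near end of Birc3. Tmem123 stood at 628.8, 477.1 and 566.1 CPM in CD103 negative, 503.4 and 426.4 in CD103 low, and 209.9 and 217.4 in CpG CD103 high. The CpG CD103 high libraries were the lowest and lay close together. Tmem123 fell by 1.37 log2 units (SE 0.13, adjusted p 0.000133).

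Of the genes around Tmem123 and Birc3, none was called. Birc2, which encodes cIAP1, stood at 35.4, 33.6 and 45.5 CPM in CD103 negative and at 38.8 and 38.5 in CpG CD103 high (log2 fold change 0.17, SE 0.12, adjusted p 0.351). No other gene within 250 kb passed the filter: Mmp7 held 16 counts over the 7 libraries, and Mmp8, Mmp27, Mmp20, Yap1, Cfap300 and Cep126 held between 0 and 2. The ratio of Tmem123 to Birc3 counts within a library was 3.43, 2.94 and 2.64 in CD103 negative and 2.36 and 2.33 in CD103 low. It was 1.35 and 1.54 in CpG CD103 high, below the other 5 libraries.

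Slco5a1 encodes an organic anion transporter family member whose substrates are poorly known, and it is used as a marker of migratory dendritic cells. On chromosome 1 (12866549 to 12992796), it was covered by 77, 51 and 121 counts in CD103 negative, 61 and 49 in CD103 low, and 10 and 17 in CpG CD103 high. In CPM these were 16.9, 11.0 and 25.8, 13.9 and 11.3, and 2.22 and 3.81. Both CpG CD103 high libraries lay well below the rest, and CD103 negative replicate 3 was the highest. The log2 fold change of -2.20 (SE 0.33, adjusted p 0.00127) was the lowest of the 10 genes, on few counts.

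Cacnb3 encodes a cytoplasmic beta subunit of voltage-gated calcium channels. On chromosome 15 (98628436 to 98644536), it stood at 97.9, 77.8 and 192.4 CPM in CD103 negative, 109.7 and 113.1 in CD103 low, and 60.8 and 68.1 in CpG CD103 high. CD103 negative replicate 3 was far above the other 6 libraries, and CpG CD103 high was the lowest group. Cacnb3 fell by 0.45 log2 units against CD103 negative (SE 0.12, adjusted p 0.0258). The call was lost in 8 of 15 alternative fits, among them those without CpG CD103 high replicate 1 (-0.37, adjusted p 0.117) and without CD103 negative replicate 1 (-0.27, adjusted p 0.166). Without CD103 low replicate 1 or 2 the adjusted p was 0.0543 and 0.0534, and without the date term the value was -0.93 (adjusted p 0.0904).

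Il4i1 encodes a secreted L-amino acid oxidase that degrades phenylalanine and tryptophan and dampens T cells. On chromosome 7 (44836288 to 44840809), it was covered by few counts, with 32, 31 and 23 counts in CD103 negative, 7 and 10 in CD103 low, and 17 and 6 in CpG CD103 high. The values were 7.03, 6.68 and 4.89 CPM, 1.59 and 2.30, and 3.77 and 1.34. All 3 CD103 negative libraries were above the other 4, while CD103 low and CpG CD103 high overlapped. Il4i1 fell by 1.41 log2 units in CpG CD103 high (SE 0.43, adjusted p 0.0358). That call was lost in 9 of 15 alternative fits, including those without CpG CD103 high replicate 2 (-0.87, adjusted p 0.167) and without CD103 negative replicate 1 (-1.38, adjusted p 0.116). It was also lost without CD103 negative replicate 2 (adjusted p 0.0962) or either CD103 low replicate (adjusted p 0.0585 and 0.0588). In GENCODE M21 the Tbc1d17 gene runs over Il4i1 on the opposite strand. Without a stated strand setting, reads from any stretch that exons of both genes share cannot be told apart. Whether their exons overlap was not checked. Tbc1d17 itself stood between 21.1 and 36.1 CPM in all libraries, with a log2 fold change of -0.05 (SE 0.18, adjusted p 0.851).

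**Figure D2:**
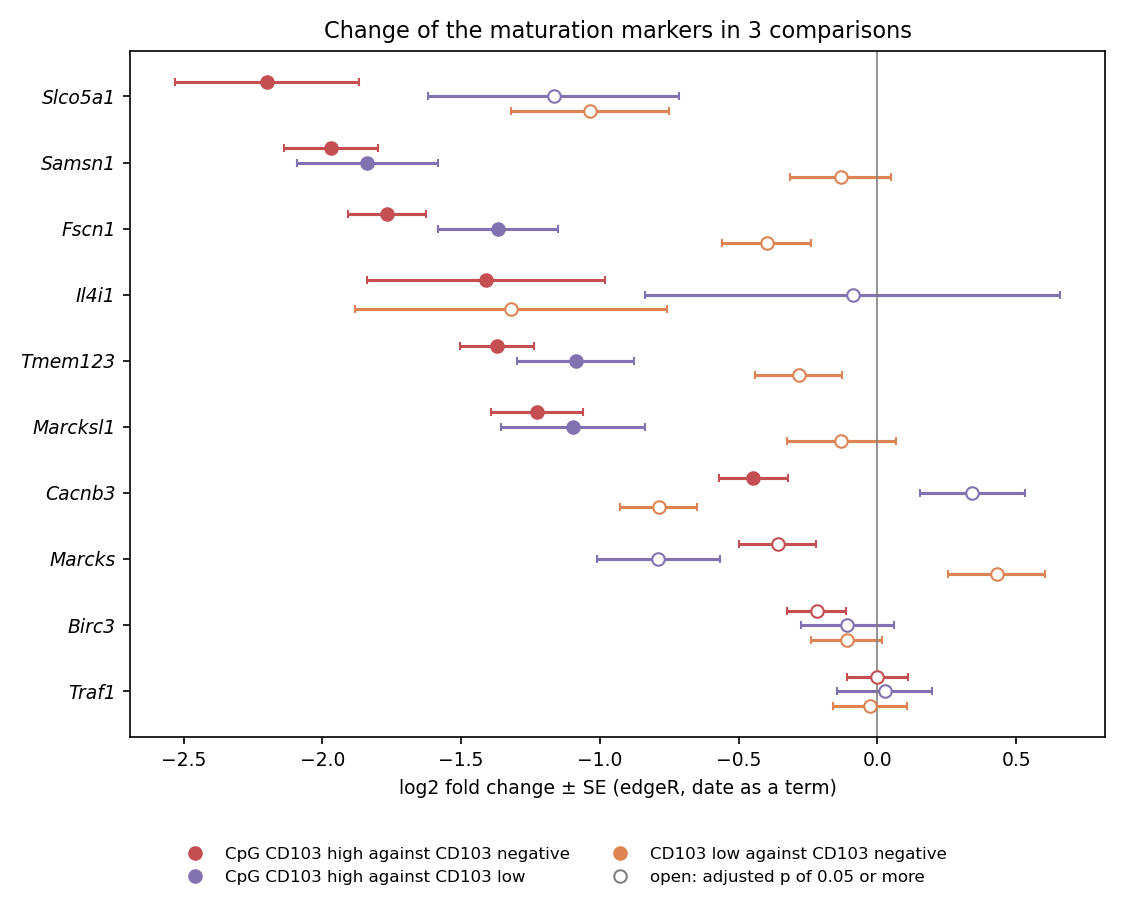
The horizontal axis gives the log2 fold change with its SE for each of the 10 genes in 3 comparisons. Filled points have an adjusted p under 0.05. The red points of 7 genes are filled and negative, from -0.45 for Cacnb3 to -2.20 for Slco5a1, no orange point is filled, and 4 purple points are filled.

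Per kilobase of gene length, the order of the genes differed between the groups. In CD103 negative cells Tmem123 was highest at 194 ± 26.6 CPM per kb (SD, n = 3), followed by Marcks (128 ± 27.3), Traf1 (97.0 ± 12.9), Fscn1 (94.3 ± 9.21) and Marcksl1 (86.2 ± 19.3). Traf1, Fscn1 and Marcksl1 did not differ beyond their spread. Birc3 (66.3 ± 9.29), Samsn1 (53.1 ± 8.92) and Cacnb3 (39.3 ± 19.6) came next, then Il4i1 (3.03 ± 0.559) and Slco5a1 (2.10 ± 0.873). In CpG CD103 high cells (n = 2) Marcks led at 109 ± 8.52 CPM per kb, Traf1 stood at 92.6 ± 4.60 and Tmem123 at 74.4 ± 1.85. Fscn1 was at 28.7 ± 3.93, below Birc3 (52.7 ± 3.38) and Marcksl1 (39.3 ± 3.24). Samsn1, at 13.5 ± 1.10, was below Cacnb3 (20.7 ± 1.66). CD103 low cells (n = 2) had Tmem123 at 162 CPM per kb, Marcks at 139, Traf1 at 104, and Birc3, Marcksl1 and Fscn1 between 66.3 and 70.5.

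CpG CD103 high cells also held less Samsn1, Fscn1, Tmem123 and Marcksl1 RNA than CD103 low cells, which carry CD103 without treatment. In log2 fold change Samsn1 differed by -1.84 (SE 0.25, adjusted p 0.00474), Fscn1 by -1.37 (SE 0.22, adjusted p 0.0084), Tmem123 by -1.09 (SE 0.21, adjusted p 0.0181) and Marcksl1 by -1.10 (SE 0.26, adjusted p 0.0368). This comparison is the difference of the contrasts of each group with CD103 negative, and so also the test of whether these differ. Of all genes 6.22% were called, 2.78% lower and 3.44% higher. The median of the 10 genes was -0.94, beside -0.02 over all genes. Fscn1 and Samsn1 were called in each of 14 alternative fits. There were 2 calls in place of 4 when CD103 low replicate 1 was left out and 7 when the date term and CD103 negative replicate 3 were dropped. Marcksl1 lost its call when any of 5 libraries was left out (CpG CD103 high replicate 1 or 2, CD103 negative replicate 1, CD103 low replicate 1 or 2). Tmem123 lost its call without CD103 low replicate 1 (-0.97). With no low-count filter, Marcksl1 and Tmem123 both lost their calls.

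For Slco5a1, Cacnb3, Marcks and Birc3 the outcome of this comparison depended on the fit. By library values alone 9 of the 10 genes, all but Il4i1, had both CpG CD103 high libraries below both CD103 low ones, as had 30.6% of all genes. None had both above, as had 28.1%. With the date term Cacnb3 stood at 0.34 (SE 0.19, adjusted p 0.309), although its raw CPM was lower in CpG CD103 high. With the date term and CD103 negative replicate 3 dropped it was -0.77 (adjusted p 0.00307). Slco5a1 moved from -1.17 (adjusted p 0.153) to -2.03 (adjusted p 0.00373). Marcks stood at -0.79 (adjusted p 0.0672) with the date term, and at -0.96 (adjusted p 0.0384) without CD103 negative replicate 2, and it was called with DESeq2 (-0.79, adjusted p 0.0215). Birc3 moved from -0.11 (adjusted p 0.738) to -0.40 (adjusted p 0.0314) when the date term and CD103 negative replicate 3 were dropped. CpG CD103 high and CD103 low carry different dates, so here date and group part only through the CD103 negative libraries.

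Between CD103 low and CD103 negative cells none of the 10 genes passed the test, at a background of 0.138% of genes called, 0.0829% lower and 0.0552% higher. At an unadjusted p under 0.05 there were 5 of the 10, 4 of them negative and Marcks positive (0.43, SE 0.17), beside 797 of all 10863 genes. DESeq2 called 1, Cacnb3 (-0.80, adjusted p 0.0172), and gave no adjusted p to 6318 of the 10863 genes. The largest differences were -1.32 for Il4i1 (SE 0.56, adjusted p 0.641), -1.03 for Slco5a1 (SE 0.28, adjusted p 0.301) and -0.79 for Cacnb3 (SE 0.14, adjusted p 0.072). Fscn1 stood at -0.40 (SE 0.16, adjusted p 0.603), with a 95% interval from -0.76 to -0.04. For Fscn1, Marcksl1 and Il4i1 both CD103 low libraries lay below all 3 CD103 negative ones, 3 of 10 genes beside 12.2% of all genes, and for none above them, beside 16.2%. Samsn1, which separated CpG CD103 high so widely, was at -0.13 (SE 0.18, adjusted p 0.921, 95% interval -0.54 to 0.27). When the date term and CD103 negative replicate 3 were dropped, Fscn1 (-0.59, adjusted p 0.0244) and Il4i1 (-1.83, adjusted p 0.0341) were called lower, while Cacnb3 turned to 0.31 (adjusted p 0.136) and Slco5a1 stood at -0.18 (adjusted p 0.713). With the libraries of 2013 alone Cacnb3 (-0.80, adjusted p 0.000269) and Slco5a1 (-1.05, adjusted p 0.0145) passed the threshold. That fit sets CD103 low against CD103 negative replicate 3 only, the highest of the 7 libraries for both genes, and assumes that the lone library varies as the CD103 low ones do.

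**Figure D3:**
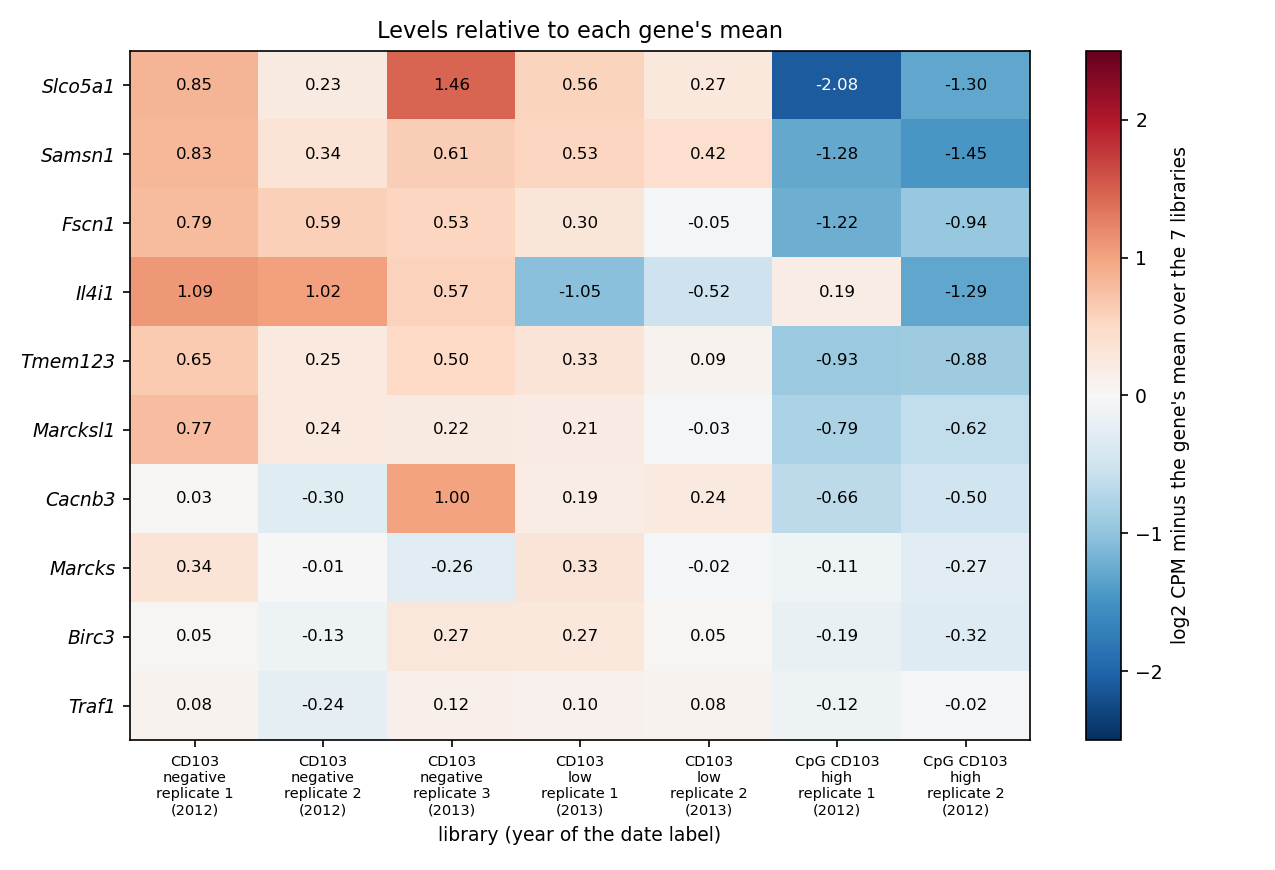
Rows are the 10 genes in the order of their change in CpG CD103 high, columns are the 7 libraries with their year, and each cell gives log2 CPM minus the mean of that gene over the libraries. The first 3 rows run from -2.08 to -0.94 in the CpG CD103 high columns, the Traf1 row stays between -0.24 and 0.12, and CD103 negative replicate 3 stands out for Cacnb3 (1.00) and Slco5a1 (1.46).

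Among the CD103 negative libraries, Cacnb3 was highest in replicate 3. That library, dated 2013, lay 1.13 above replicates 1 and 2 on the log2 scale (SE 0.14, adjusted p 0.00449), where 3.46% of all genes were called, 2.16% higher and 1.30% lower. Replicate 3 is 1 library, and the test assumes that it varies as replicates of the groups do. This call stood in all 11 alternative fits. Cacnb3 was the only 1 of the 10 genes called, with Slco5a1 at 0.88 (SE 0.28, adjusted p 0.114), Fscn1 at -0.16 (SE 0.16) and Tmem123 at 0.03 (SE 0.16). By library values alone replicate 3 was the highest of the 3 for 4 of the 10 genes and the lowest for 4, beside 40.4% and 36.6% of all genes. The same library held the highest summed level of 8 cDC2 markers, 79.8 CPM against 31.5 and 34.7 in replicates 1 and 2, 46.2 and 55.9 in CD103 low and 16.4 and 20.4 in CpG CD103 high. It also held the highest summed level of the plasmacytoid dendritic cell list, 233 CPM against 176 and 180 in replicates 1 and 2 and 227 and 201 in CpG CD103 high. The monocyte and neutrophil list summed to 120 CPM there, against 68.7 and 79.8 in replicates 1 and 2 and 88.1 and 63.0 in CpG CD103 high. Of the tested markers, 2 of 5 on the cDC2 list, 2 of 5 on the plasmacytoid list and 1 of 3 on the monocyte and neutrophil list were higher than in replicates 1 and 2, and none was lower. The part of these cells in the level of Cacnb3 was not tested. Cacna1e, which encodes a pore-forming calcium channel subunit, was also higher in replicate 3 (1.80, SE 0.25, adjusted p 0.00759), but all 3 libraries of 2013 stood between 192.9 and 208.1 CPM and the 4 of 2012 between 33.1 and 65.9. Among the other lists Adcy6 (1.05, SE 0.17), Il15ra (1.16, SE 0.20), Chuk (0.58, SE 0.11) and Birc6 (0.87, SE 0.18) were higher there, and Hdac1 (-1.03, SE 0.18) was lower. Hdac1 too followed the date, at 21.5 to 24.8 CPM in the libraries of 2013 and 35.4 to 47.4 in those of 2012.

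Some markers of other cells moved beside the 7 lower genes, in both directions. All 3 tested B cell markers were lower in CpG CD103 high against CD103 negative, with a summed level of the 6 markers of 11.8 and 13.2 CPM against 76.5 to 94.0. Of 5 tested cDC2 markers 4 were lower and none higher. Mgl2, a cDC2 marker dropped by the filter and named after its values were seen, went the other way. It held 10 and 15 counts against 1 in each CD103 negative library. Of 6 tested macrophage markers 3 were lower and none higher, with summed macrophage levels of 230.6 and 249.1 against 337.4 to 397.6 CPM. Most of that sum was Cd68, at 204.3 and 203.9 against 252.7 to 277.5 CPM. Also named after their values were seen, Adgre1 overlapped (6.88 and 3.36 against 3.51, 3.88 and 5.32 CPM). C1qa, untested and with few counts, lay higher (1.55 and 0.90 against 0.22, 0.22 and 0.64 CPM). Of the 11 cDC1 markers 6 were higher, among them Tlr3, Cadm1 and Clec9a. Of 6 tested erythroid and platelet markers 5 were higher, at summed levels of 31.9 and 35.6 CPM against 3.29 to 4.90. Plasmacytoid dendritic cell markers summed to between 160 and 233 CPM, NK cell markers to between 57.0 and 116 and monocyte and neutrophil markers to between 30.1 and 120 over the 7 libraries. In CpG CD103 high against CD103 negative, 1 of 5 tested plasmacytoid markers was higher and 1 lower. Of 3 tested monocyte and neutrophil markers 2 were higher and 1 lower, and the 1 tested NK cell marker was not called. T cell markers summed to between 0.647 and 3.41 CPM in 6 libraries and to 36.6 in CD103 low replicate 2. No list had a marker at 0 in all libraries. The part of these shifts in the levels of the 10 genes was not tested.

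Other genes of maturation moved in both directions. Of 53 tested genes on a list of 60, 20 were lower and 10 higher in CpG CD103 high against CD103 negative (37.7% and 18.9%, beside 11.8% and 14.5% of all genes), with a median log2 fold change of -0.45. H2-M2, a class I-like gene of mature dendritic cells, fell by 3.84 log2 units (SE 0.28, adjusted p 2.84e-05), to 6 and 13 counts. Apol7c fell by 2.62 (SE 0.15, adjusted p 5.62e-06) and the chemokine gene Ccl5 fell by 2.36 (SE 0.11, adjusted p 2.97e-06). Among the higher genes, named after their values were seen, were the protease inhibitor genes Serpinb6b (0.99, SE 0.09) and Serpinb9 (1.04, SE 0.10) and Cd274 (1.29, SE 0.15), the gene of the checkpoint ligand PD-L1. Against CD103 low, 10 were lower and 2 higher (18.9% and 3.77%, beside 2.78% and 3.44% of all genes), led by Apol7c (-3.05, SE 0.23), H2-M2 (-3.40, SE 0.38) and Ccl5 (-1.46, SE 0.17). In CD103 low against CD103 negative only Ccl5 was called among the 53 (-0.90, SE 0.12, adjusted p 0.0382).

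**Figure D4:**
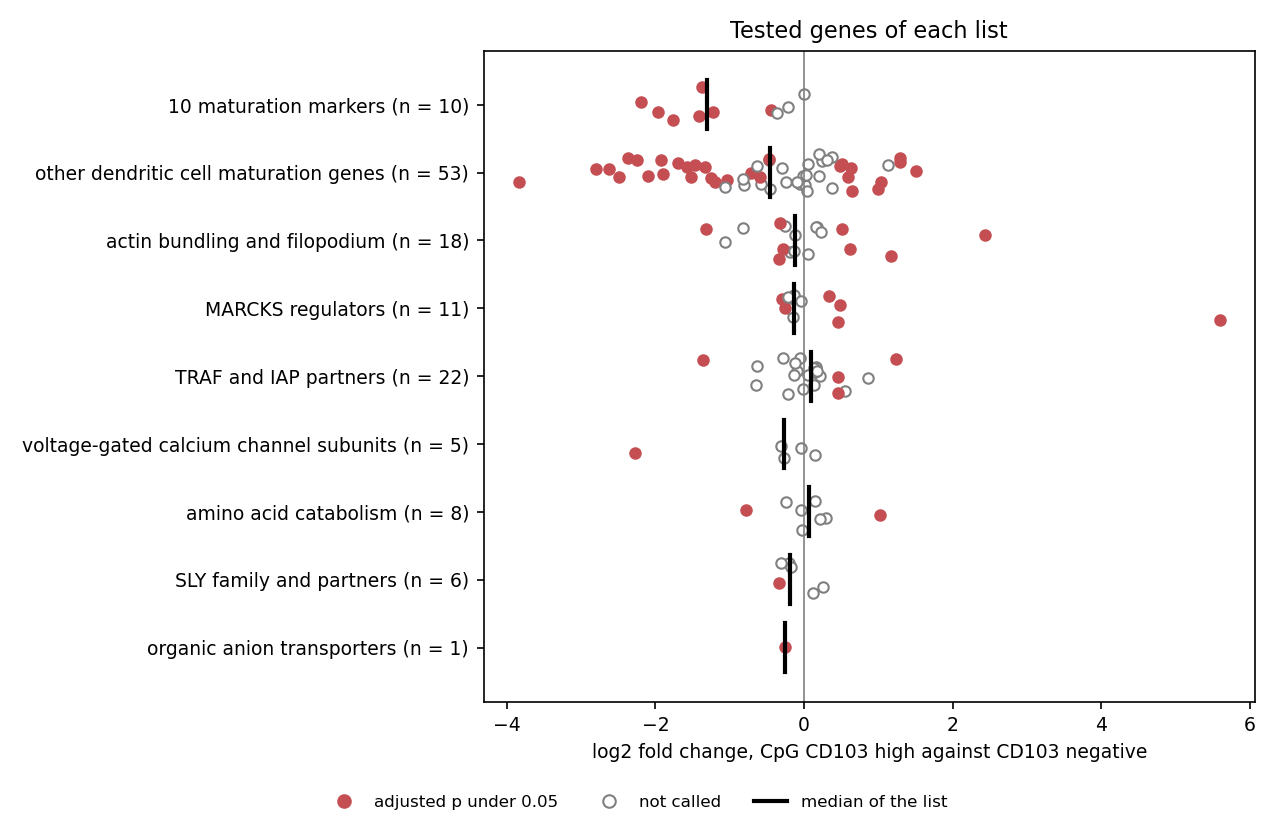
Each point is a tested gene at its log2 fold change in CpG CD103 high against CD103 negative, in 1 row per list, with red points called at an adjusted p under 0.05 and a black bar at the median of the list. The 10 maturation markers have a median of -1.30, the other maturation genes -0.45, and the 7 lists of partners and relatives lie between -0.27 and 0.09.

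Genes that work with the 10 or share their family had list medians between -0.27 and 0.09, and their calls are to be read beside the 14.5% of all genes called higher and the 11.8% called lower. Of 18 tested genes of actin bundling and filopodia 4 were higher and 4 lower. By adjusted p the calls were led by Baiap2 (1.17, SE 0.13), Evl (0.62, SE 0.08) and Myo10 (2.44, SE 0.38), which act in filopodium formation and were all higher. Myo10 rested on few counts, 39 and 36 in CpG CD103 high against 7, 7 and 16 in CD103 negative. The 4 lower calls changed in the direction of Fscn1. Among 11 MARCKS regulators 4 were higher and 2 lower. Prkcb, a protein kinase C gene, rose by 0.46 (SE 0.08) and Basp1, a MARCKS-like membrane protein gene, by 0.48 (SE 0.11). Prkcq, which encodes another protein kinase C, was called higher with 36 and 23 counts in CpG CD103 high, 9 and 8 in CD103 low, and 1, 0 and 4 in CD103 negative.

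Of 22 tested partners of TRAF and IAP proteins 3 were higher and 1 lower (13.6% and 4.55%), no larger a share than over all genes. Chuk, which encodes the IKK alpha kinase, rose by 1.24 (SE 0.09, adjusted p 2.84e-05), from 88.9, 88.2 and 132.6 CPM in CD103 negative to 203.7 and 213.4 in CpG CD103 high. Tnfrsf1b, which encodes a TNF receptor that recruits TRAF2, fell by 1.36 (SE 0.11, adjusted p 5.28e-05), and Traf5 rose by 0.45 (SE 0.14). Of 5 tested calcium channel subunit genes only Cacnb2, a paralogue of Cacnb3, was called, falling from 11.4, 9.27 and 13.8 CPM to 2.44 and 1.79 (-2.27, SE 0.33). Against CD103 low it stood at -2.34 (SE 0.44, adjusted p 0.0163).

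Among 8 tested amino acid catabolism genes Kmo, an enzyme of the kynurenine pathway, fell by 0.77 (SE 0.12) and Afmid, another, rose by 1.02 (SE 0.26). Sash3, which encodes the SLY1 relative of Samsn1, fell by 0.34 (SE 0.10), and it was the only 1 of 6 tested SLY family and partner genes called. Slco3a1, the only other organic anion transporter gene tested, fell by 0.26 (SE 0.08) against CD103 negative and stood at -0.80 (SE 0.13, adjusted p 0.0106) against CD103 low. Over the 71 tested genes of these 7 lists, counted once per list, 12 were higher and 11 lower against CD103 negative. These are near the shares over all genes, 14.5% and 11.8%. Against CD103 low 2 were higher, Myo10 (3.08, SE 0.64) and Chuk (1.22, SE 0.14), and 3 lower, beside 3.44% and 2.78% of all genes. None was called in CD103 low against CD103 negative, where their most abundant genes included Lcp1 (0.07, SE 0.09), Actr3 (0.18, SE 0.09), Birc6 (-0.22, SE 0.18), Kmo (-0.08, SE 0.14), Cacna1e (-0.08, SE 0.25) and Slco3a1 (0.54, SE 0.10, adjusted p 0.092).

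The genes whose pattern over the 7 libraries was most like that of Fscn1 were Rhoa, Zfp422, Mef2c, Tmem176b and Rgs12. Pearson's r of log2 CPM with Fscn1 lay between 0.986 and 0.989, as a description across 7 libraries that share 3 groups and 2 dates, out of 7275 genes whose log2 CPM averaged 4 or more. Tmem123 ranked 16 in that order (r = 0.980), Marcksl1 33 (0.972) and Samsn1 102 (0.9495), while Birc3 ranked 1248 (0.676), Cacnb3 1374 (0.641), Marcks 1858 (0.509) and Traf1 2637 (0.283). Mef2c, a transcription factor gene, stood at 61.5, 48.3 and 53.0 CPM in CD103 negative, 44.5 and 30.8 in CD103 low and 9.98 and 9.64 in CpG CD103 high. Tmem176b, which encodes a membrane protein of dendritic cell vesicles, went from 97.0, 65.5 and 88.5 through 52.2 and 42.8 to 3.99 and 6.28 CPM. Rhoa, which encodes a GTPase that organises actin, changed less, from 486.8, 477.5 and 458.9 through 461.1 and 418.4 to 353.4 and 354.1 CPM.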

How the data were processed

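RNA of 7 samples of sorted CD8 dendritic cells was sequenced. Per the file headers and the values, each deposited file gives whole-number read counts per gene, not normalized, and a gene length in bases. CASAVA, Subread 1.4.6, featureCounts and mm10 are named, without roles, in the submitters' processing notes. The sources used here do not give the strand setting, the annotation release or the handling of multiply mapped reads, which can blur overlapping or near-identical genes. A whole-series table with 7 columns that match no sample label was not used.

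Entrez identifiers were matched to RefSeq symbols (25275 of 27179). The counts were tested in edgeR 4.0.16 (R 4.3.3): filterByExpr by group, TMM scaling, and a quasi-likelihood fit with group and date over all 7 libraries (3 residual degrees of freedom). A call is an adjusted p under 0.05 (Benjamini-Hochberg over 10863 genes). The SE is the log2 fold change divided by the square root of F. SDs of CPM span both dates. At this depth 3 counts, the limit that a count of 0 allows, equal 0.638 to 0.690 CPM; this covers counting error only. The fit was run on simulated counts with 200 genes changed in CpG CD103 high, checked against CD103 negative only. All genes there had the same spread, no date effect was put in, and the changed genes were not of low counts. That run therefore does not cover the other comparisons, the date or genes with few counts. Alternatives used DESeq2 1.42.0, limma 3.58.1, other filters and scaling, fewer libraries, no date and a replicate block. The series calls the samples biological replicates.

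The 10 genes and all lists were chosen with earlier results of these data known. All 10 are named in each comparison. Up to 3 called genes of each list by adjusted p, or its most abundant gene, are named, as are 5 genes most like Fscn1 (Pearson, log2 CPM with prior count 2) and the genes within 250 kb of Tmem123 or Birc3; 1 gene that this rule names is not reported here. A few others, marked so, were named after their values were seen.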

Additional observations from a re-analysis of the deposited data

How the results depend on the processing

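Against CD103 negative, between 5 and 8 of the 10 genes were called lower in CpG CD103 high over 15 alternative fits. Against CD103 low, 4 were called, 2 with no low-count filter, and 2 to 7 when a library was left out. In CD103 low against CD103 negative, 0 were called, 1 by DESeq2, 2 with the libraries of 2013 alone, and 0 to 2 when a library was left out. The tops of these ranges, 7 and 2, came from the fit without CD103 negative replicate 3, which also dropped the date term. That fit was chosen after seeing the data, as was leaving out libraries in the comparison of CD103 negative replicates. The replicate number as a replicate block could be fitted only over libraries numbered 1 and 2 and without the date term. It gave 8, 2 and 8 genes lower in CpG CD103 high against CD103 negative, CD103 low against CD103 negative and CpG CD103 high against CD103 low. Deviations of same-numbered libraries correlated at 0.17 for CpG CD103 high and CD103 negative, both dated 2012. They correlated at -0.01 for CpG CD103 high and CD103 low and 0.00 for CD103 negative and CD103 low, where the dates differ. These values do not settle whether the numbers are pairs, and the main fit did not take them so. With 2 libraries per group the deviations mirror each other, so a value below 0 means only that unlike numbers correlated more.

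The sign turned in values that were, but for Cacnb3 without replicate 3 or with the block, not called in either fit, and the cause was not tested. In CD103 low against CD103 negative, Birc3 was 0.088 without the date term and 0.17 with the block (-0.22 to 0.17 leaving out a library). Cacnb3 was 0.32 with the block (-0.81 to 0.31), Marcks -0.038 (-0.038 to 0.59), and Traf1 0.10 without the date term and 0.14 with the block (-0.04 to 0.14). In CpG CD103 high against CD103 low, Cacnb3 was -0.79 without the date term and -0.77 with the block (-0.77 to 0.51 leaving out a library). Il4i1 was 0.39 and 0.40, with 0.41 without CD103 negative replicate 3 (-1.01 to 0.46), Traf1 -0.17 and -0.15, with -0.13 without CD103 negative replicate 2 (-0.15 to 0.20), and Birc3 ran from -0.40, where it was called, to 0.0042 leaving out a library. In CpG CD103 high against CD103 negative, Traf1 was 0.00195 with a filter of 1 CPM in 5 libraries and 0.0084 with limma voom (-0.15 to 0.17). Between CD103 negative libraries, Samsn1 was 0.000429 with that filter and 0.0211 with limma voom (-0.22 to 0.26 leaving out a library), and Tmem123 ran from -0.15 to 0.25.

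Over all genes, the 2860 calls of CpG CD103 high against CD103 negative became 1589 without the date term, 1459 with DESeq2, and 1738 to 2861 when a library was left out. The 676 calls against CD103 low became 382 with DESeq2, 263 with no filter, 115 to 1668 leaving out a library and 1788 with the block. The 15 calls of CD103 low against CD103 negative became 1 with no filter, 40 with DESeq2, 187 with the libraries of 2013 alone, 1 to 1035 leaving out a library and 1180 with the block. The tops of the ranges leaving out a library, 2861, 1668 and 1035, came from the fit without CD103 negative replicate 3, which also dropped the date term. In CD103 low against CD103 negative, DESeq2 gave no adjusted p to 6318 of the 10863 genes. Depth limits Il4i1 and Slco5a1 most.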
